A study of Mus musculus with 37 samples.

Results

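VIP receptors and the cAMP pathway below them were followed as 10 genes in jejunal organoids of mice: the receptor genes Vipr1, Vipr2 and Adcyap1r1, the G protein alpha subunits Gnas and Gnai2, the adenylyl cyclase Adcy6, the protein kinase A subunits Prkaca and Prkar1a, and the transcription factors Creb1 and Crem. They were taken by symbol from the 3 deposited count tables, which list 31533 genes in all. The whole-organoid table lists 8 of the 10 and both tables of sorted cells list all 10. RNA was sequenced from whole organoids of C57Bl/6 mice and from Lgr5-EGFP+ cells sorted out of organoids of Lgr5-EGFP-IRES-CreERT2 mice, in which EGFP and a tamoxifen-inducible Cre are expressed from the Lgr5 locus. All donors were adult, each organoid line came from 1 mouse, and within an experiment every sample with and without VIP of the same mouse number shares that line. Mouse numbers start again in each experiment, so mouse 1 is a different animal in each. Whole organoids were left untreated (n = 3) or kept in 100 nM VIP (n = 4) for 72 h, and sorted cells of a second experiment had the same 2 conditions for 72 h (n = 4 each). The irradiation experiment had sorted cells in 4 groups of 4, untreated or with 100 nM VIP for 48 h, after 6 Gy of irradiation or without it. The tables hold UMI counts, in which each captured 3′ end of a transcript is counted once, and levels are given as UMIs per 1000000 UMIs of the sample (CPM).

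Vasoactive intestinal peptide (VIP) is a neuropeptide released by enteric neurons and acts on class B G protein-coupled receptors. The products of Vipr1 and Vipr2, VPAC1 and VPAC2, bind VIP and the related peptide PACAP with similar affinity, whereas PAC1, the product of Adcyap1r1, prefers PACAP. An occupied receptor activates the stimulatory G protein alpha subunit Gs, adenylyl cyclase then makes cAMP, and cAMP releases the catalytic subunits of protein kinase A (PKA) from their regulatory subunits. PKA phosphorylates CREB, which drives genes with a cAMP response element, and in the intestinal epithelium the same route is known for the control of chloride and fluid secretion.

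Samples held between 3722716 and 6330404 UMIs in whole organoids, between 575242 and 1104126 in the sorted cells kept for 72 h, and between 1075715 and 1876729 in the irradiation experiment. A level of 10 CPM thus rests on far fewer counts in sorted cells, and intervals from counts cover counting error only. The 6 epithelial markers examined, among them Epcam and Cdh1, were all counted in every group, at 3822 to 5892 CPM in sum, and the lists for fibroblasts and smooth muscle, immune cells, endothelium, and enteric neurons and glia each stayed at or below 6.24 CPM in sum per sample. Lgr5 itself averaged 77.5 CPM in untreated whole organoids and 34.9 and 20.4 CPM in the untreated sorted cells of the 72 h and irradiation experiments, although the sum of 6 stem cell markers was higher in untreated sorted cells of the 72 h experiment (4106 to 5806 CPM) than in 2 of the 3 untreated whole-organoid samples (2425 and 2674 CPM). In unirradiated untreated cells of the irradiation experiment this sum was 3341 to 4341 CPM, which overlapped untreated whole organoids (2425 to 4294 CPM). Irradiated untreated cells were at 2411 to 2756 CPM. Cultures of whole organoids were sequenced as 2 technical libraries each, apart from untreated mouse 3 with 1, and counts were added up per culture.

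The libraries of VIP-treated mouse 3 stood apart from each other. Prkaca was at 134 CPM in the first and 54.8 CPM in the second, Crem at 11.8 and 3.68 CPM, Prkar1a at 319 and 220.3 CPM, and Gnai2 at 289 and 179.8 CPM. In the other 5 cultures with a pair of libraries, the 2 libraries of a culture were between 54.2 and 88.3 CPM for Prkaca. For Gnai2, those of untreated cultures were between 165 and 206 CPM and those of VIP-treated ones between 226 and 307 CPM. The goblet cell gene Clca1 was at 325 CPM in the first library of VIP-treated mouse 3 and at 52.3 CPM in the second, against 54.3 CPM in the untreated library of that mouse. In the other 5 cultures Clca1 was between 40.2 and 60.9 CPM untreated and between 173 and 252 CPM with VIP. The single library of untreated mouse 3, with Prkaca at 134 CPM and Creb1 at 21.2 CPM, was near the first library of the treated culture (134 and 23.7 CPM) and far from the second (54.8 and 41.3 CPM). For Gnai2, Adcy6, Prkar1a, Prkaca, Creb1 and Crem, the VIP difference in whole organoids is therefore also given with each library of this culture left out. Calls of other pathway genes are counted in the same way, and the plot of technical libraries shows values per library.

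**Figure D1:**
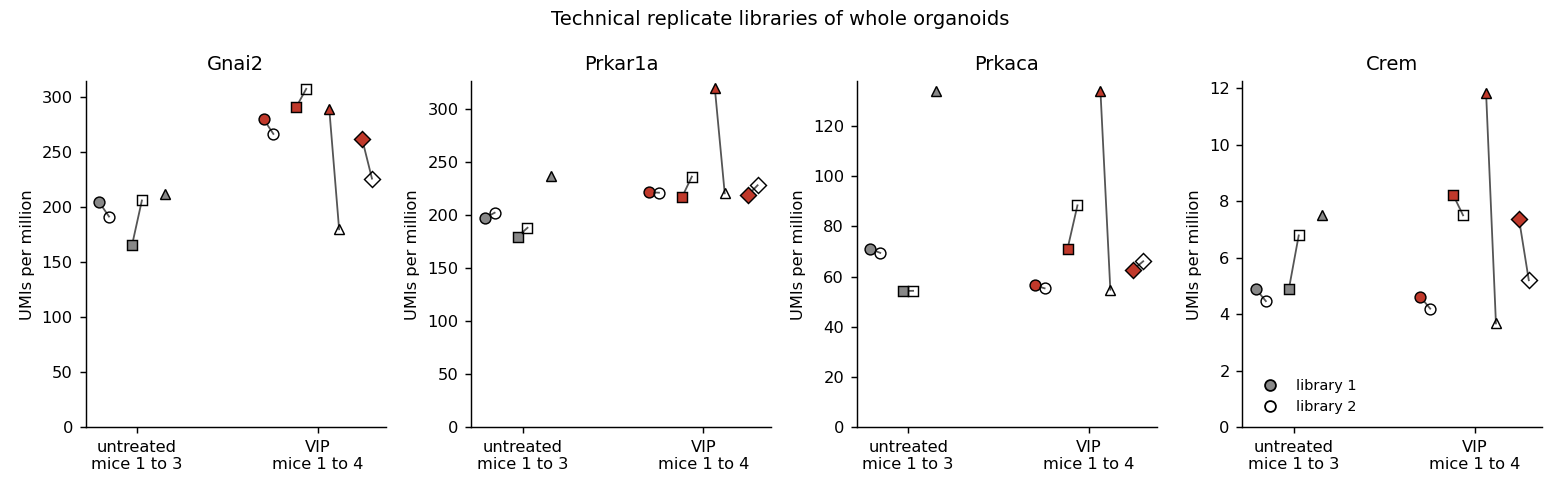
Level in CPM (y axis) of Gnai2, Prkar1a, Prkaca and Crem in each technical library of whole organoids, untreated in grey and VIP-treated in red, with mice from left to right, filled symbols for library 1, open ones for library 2 and a line between the libraries of a culture. VIP-treated mouse 3 falls from 289 to 179.8 CPM for Gnai2 and from 134 to 54.8 CPM for Prkaca between its libraries.

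Of the 3 receptor genes, Vipr1 was counted in all 31 samples, and Vipr2 and Adcyap1r1 were at or near zero throughout. The whole-organoid table, which lists only genes with at least 1 UMI, has no row for Vipr2 or Adcyap1r1 among 38135519 UMIs, and a count of 0 there allows up to 0.0787 CPM. In the sorted cells kept for 72 h, Vipr2 had 1 UMI among 5592766 in 8 samples, which is 0.179 CPM with an exact Poisson 95% interval of 0.00453 to 0.996 CPM. Adcyap1r1 also had 1 UMI there. Over the 16 samples of the irradiation experiment, Vipr2 had 2 UMIs (0.0806 CPM, interval 0.00977 to 0.291) and Adcyap1r1 had 1 (0.0403 CPM, interval 0.00102 to 0.225). All 5 of these UMIs came from VIP-treated samples, no sample held more than 1, and neither gene could be tested in any comparison. Pooled over samples, Vipr1 was at 26.6 CPM in whole organoids (1015 UMIs, interval 25.003 to 28.3), 13.6 CPM in sorted cells kept for 72 h (76 UMIs, interval 10.7 to 17.0) and 8.95 CPM in those of the irradiation experiment (222 UMIs, interval 7.81 to 10.2). Whether the counting used strand is not given in the sources used here, and Vipr2 overlaps the antisense gene Gm20658.

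Vipr1 lies on mouse chromosome 9 (GRCm38, chr9:121642716-121672954, plus strand). Of the 10 genes, 7 have a promoter in the RefSeq table for GRCm38.p6, a window from 250 bases before to 50 after a transcription start, and Gnai2, Adcy6 and Crem have no entry there. Each window was searched on both strands for the cAMP response element TGACGTCA and for TGACG, which is contained in it. The promoter of Vipr1, the one receptor gene with counts in every sample, is shown with its match to TGACG or its reverse complement in capitals.
Vipr1, chr9:121642466-121642765, plus strand: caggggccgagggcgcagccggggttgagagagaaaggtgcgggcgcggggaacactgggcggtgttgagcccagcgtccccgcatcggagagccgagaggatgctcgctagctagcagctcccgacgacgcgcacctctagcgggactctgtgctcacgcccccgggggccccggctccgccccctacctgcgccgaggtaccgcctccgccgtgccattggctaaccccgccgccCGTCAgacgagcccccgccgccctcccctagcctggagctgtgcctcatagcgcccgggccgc
The match starts 13 bases before the transcription start. TGACG was present in 20.8% of the 32851 promoters of the table and the full TGACGTCA in 1.79% of them. The windows of Vipr2 and Adcyap1r1 hold neither sequence.

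Vipr1 was lower in every sorted sample than in every sample of whole organoids, and no change with VIP or irradiation was detectable. In untreated whole organoids it was at 24.1, 30.0 and 26.6 CPM in mice 1 to 3, and with VIP at 24.0, 33.2, 26.9 and 21.2 CPM in mice 1 to 4. The 2 groups overlapped. Untreated sorted cells kept for 72 h were at 11.8, 18.5, 6.58 and 20.7 CPM and those with VIP at 11.8, 8.69, 11.9 and 17.4 CPM, values that come from 4 to 16 UMIs per sample. All 8 sorted samples of that experiment were below all 7 samples of whole organoids. In the irradiation experiment, unirradiated cells were at 12.6, 9.87, 7.23 and 11.1 CPM without VIP and at 10.5, 5.97, 5.75 and 6.70 CPM with it. Irradiated cells were at 10.6, 6.09, 8.37 and 13.4 CPM without VIP and at 10.1, 8.79, 8.83 and 8.62 CPM with it. From the highest to the lowest mean, the order was untreated whole organoids (26.9 ± 2.97 CPM, SD, n = 3), VIP-treated whole organoids (26.3 ± 5.15, n = 4), the untreated and VIP-treated sorted cells of the 72 h experiment (14.4 ± 6.43 and 12.5 ± 3.63), unirradiated untreated cells (10.2 ± 2.27), irradiated untreated cells (9.60 ± 3.11), irradiated cells with VIP (9.09 ± 0.695) and unirradiated cells with VIP (7.23 ± 2.22). Each neighbour in this order overlapped the next, apart from the step between whole organoids and sorted cells.

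**Figure D2:**
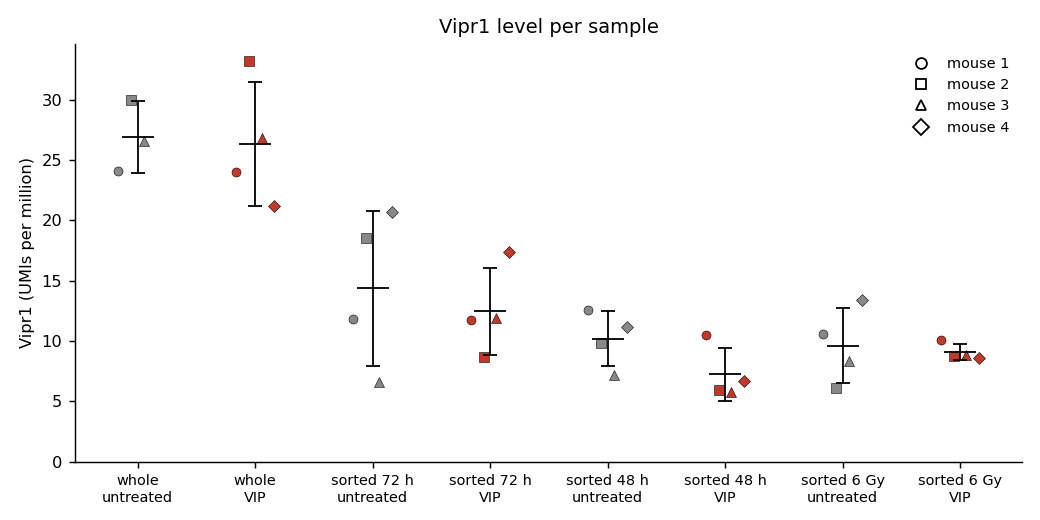
Level of Vipr1 in CPM (y axis) in each sample of the 8 groups (x axis), with symbols for mice within an experiment, untreated samples in grey and VIP-treated samples in red. The horizontal line is the mean and the bar the SD, and whole organoids lie between 21.2 and 33.2 CPM, above every sorted sample (5.75 to 20.7 CPM).

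Untreated groups were set against each other over 10649 genes in edgeR (quasi-likelihood test), and here as for every other adjusted p the correction was that of Benjamini and Hochberg and a call needed 0.05 or less. The mice and the experiment differ in each of these 3 comparisons, and the time kept (48 h against 72 h) in those with the irradiation experiment. Compartment and strain differ as well in those with whole organoids, and only the sorted cells were dissociated and sorted. The parts of these factors cannot be told apart. Between untreated sorted cells of the irradiation experiment and untreated whole organoids, 4 of 8 members tested were called, in a comparison in which 54.2% of all genes were called. Vipr1 was lower in the sorted cells, at -1.30 on the log2 scale (SE 0.27, adjusted p = 8.05e-04), 0.406 times the level of whole organoids, and was called under all 16 alternative settings (-1.43 to -1.16). Between untreated sorted cells of the 72 h experiment and whole organoids, 0 of 8 members were called by edgeR and 0 had an unadjusted p under 0.05, DESeq2 also called 0, and 38% of all genes were called. Vipr1 differed there by -0.60 (SE 0.30, adjusted p = 0.129), with library size as the only scaling by -0.87 (adjusted p = 0.0286, against 0.0286 to 0.336 over 16 alternatives). That scaling moved the median over all genes in this comparison from -0.10 to -0.38, and the split of all calls from 2020 higher and 2024 lower to 1461 higher of 4939. Between the 2 experiments on sorted cells, untreated Vipr1 was at -0.70 in the irradiation experiment (SE 0.33, adjusted p = 0.117). Over 16 alternatives this lay between -0.91 and -0.50 (adjusted p from 0.0424 to 0.368), and 1 of them gave a call. In this comparison library size as the only scaling moved the all-gene median from -0.02 to 0.15 and the calls from 1379 higher of 3280 to 2342 higher of 3725. Summed enterocyte markers were also lower in sorted cells than in whole organoids, but overlapped between the 2 experiments on sorted cells. They were at 12269 to 13617 CPM in untreated whole organoids, 791 to 1900 CPM in untreated sorted cells kept for 72 h and 955 to 1335 CPM in those of the irradiation experiment. All 6 genes of the list were counted in each group. Some other sums did not overlap between the untreated cells of the 2 experiments on sorted cells. Enteroendocrine sums were 501 to 1665 CPM at 72 h and 2387 to 3093 CPM in the irradiation experiment. Tuft cell sums were 17.5 to 24.7 and 54.9 to 84.5 CPM. Those of stem, goblet and Paneth cells overlapped. The part of these cell types in the differences was not tested, and in these bulk samples fewer cells of a type and less RNA per cell cannot be told apart.

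VIP was tested within mice. In whole organoids Vipr1 differed by 0.05 (SE 0.13, 95% interval -0.23 to 0.33, adjusted p = 0.902), higher in 2 of 3 mice. It was too low for the test in the sorted cells kept for 72 h. In unirradiated sorted cells Vipr1 was lower with VIP in 4 of 4 mice, at -0.51 (SE 0.28, interval -1.08 to 0.06), with an adjusted p of 0.487. In irradiated cells the difference was -0.06 (SE 0.27, adjusted p = 0.995). Irradiation gave -0.12 (SE 0.27, adjusted p = 0.882) without VIP and 0.32 (SE 0.28, adjusted p = 0.567) with it, and the interaction of VIP and irradiation was 0.44 (SE 0.39, adjusted p = 0.924). Vipr1 averaged 13.9 UMIs per sample in this experiment, and changes within these intervals were not detectable at this depth. Marker sums of unirradiated cells differed with VIP. Stem cell sums were 3341 to 4341 CPM without VIP and 5154 to 5629 CPM with it. Paneth cell sums were 9889 to 14679 CPM and, with VIP, 8393 to 9746 CPM. Goblet cell sums were 4589 to 7368 and 4020 to 4528 CPM, and enterocyte sums 955 to 1335 and 646 to 889 CPM. These ranges did not overlap, and those of enteroendocrine and tuft cells did. The part of these shifts in the VIP differences was not tested.

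Gnai2 was the one member called for VIP. It encodes an alpha subunit of the inhibitory G proteins, which lower adenylyl cyclase activity. In whole organoids Gnai2 was at 198, 187 and 212 CPM without VIP and at 273, 300.0, 247 and 245 CPM with it. Each of the 4 treated samples was above all 3 untreated ones. The rise was 0.45 on the log2 scale (SE 0.11, 1.37-fold, edgeR adjusted p = 0.0251), in 3 of 3 mice, and Gnai2 was 1 of 8 members called where 4.82% of the 12727 genes tested were called, 474 higher and 140 lower. The call did not hold with DESeq2 (0.44, adjusted p = 0.0912), without the mouse as a block (0.41, adjusted p = 0.228), without mouse 1 (0.43, adjusted p = 0.180) or without mouse 2 (0.32, adjusted p = 0.236), and without mouse 3 the rise was 0.59 (adjusted p = 4.29e-09). With the second library of VIP-treated mouse 3 left out it was 0.53 (adjusted p = 8.97e-04), and with the first left out 0.29 (adjusted p = 0.932), a fit in which 0 genes of 12748 were called, and over 12 alternatives the rise lay between 0.29 and 0.59. Gnai2 lies at chr9:107614125-107635367 on the minus strand of GRCm38, where the gene model Gm19721 overlaps it on the same strand.

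In the sorted cells kept for 72 h, Gnai2 was at 165, 179, 113 and 153 CPM without VIP and at 190.2, 205, 223 and 193 CPM with it. These groups did not overlap either, and it was higher with VIP in 4 of 4 mice. The difference of 0.38 (SE 0.15, 95% interval 0.08 to 0.68) had an unadjusted p of 0.0163 and an adjusted p of 0.884, with 0.0885% of 6778 genes called. Members called were 0 of 6 here by edgeR and 0 by DESeq2, and Gnai2 alone had an unadjusted p under 0.05. A test of whether VIP acted differently on Gnai2 in the 2 compartments gave -0.07 (SE 0.19, interval -0.46 to 0.32, adjusted p = 0.986). In that interaction 0 of 7 members were called, none had an unadjusted p under 0.05, DESeq2 called 0, and 0.147% of all genes were called.

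At 48 h in the irradiation experiment the values of Gnai2 with and without VIP overlapped. Unirradiated cells were at 244, 221, 199 and 224 CPM without VIP and at 242, 265, 219 and 275 CPM with it, a difference of 0.16 (SE 0.08, adjusted p = 0.411) that was positive in 3 of 4 mice. Irradiated cells were at 231, 293, 236 and 237 CPM without VIP and at 265, 249, 273 and 294 CPM with it, a difference of 0.10 (SE 0.08, adjusted p = 0.964), again positive in 3 of 4 mice. Mouse 2 was the exception in irradiated cells and mouse 1 in unirradiated ones. By irradiation Gnai2 differed by 0.18 (SE 0.08, unadjusted p = 0.0382, adjusted p = 0.263) without VIP and by 0.11 (SE 0.08, adjusted p = 0.456) with VIP. The plot of Gnai2 by mouse joins the samples of a line.

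**Figure D3:**
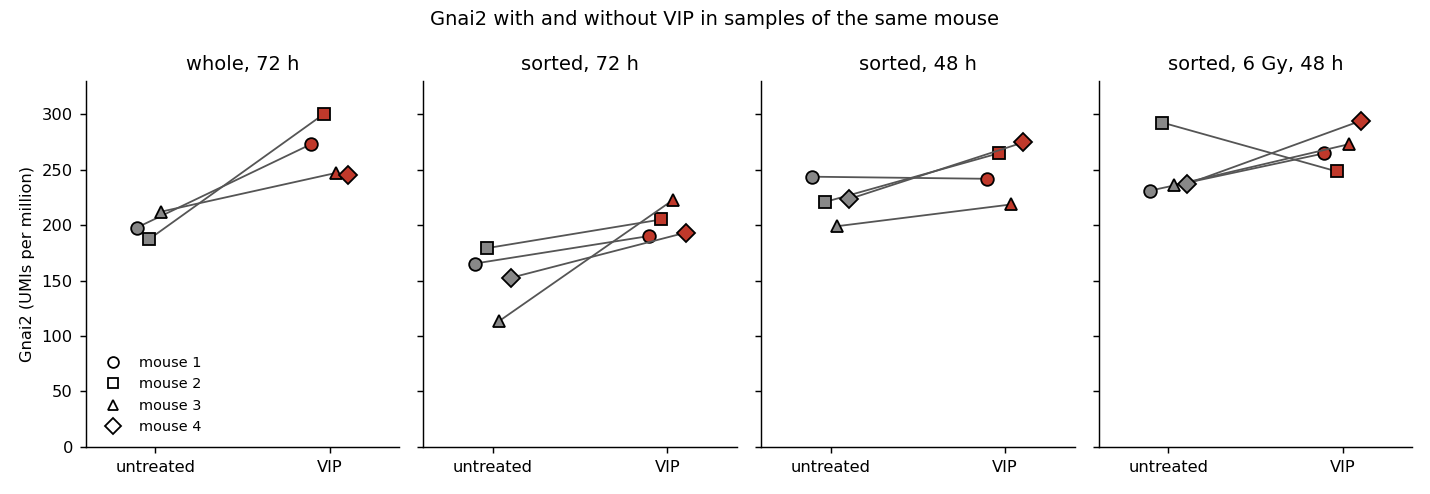
Level of Gnai2 in CPM (y axis) without VIP (grey) and with VIP (red) in whole organoids, sorted cells at 72 h, and unirradiated and irradiated sorted cells at 48 h, with a line between samples of the same mouse. All lines rise in the panels of whole organoids and of the sorted cells at 72 h, and 3 of 4 rise in each of the others.

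Gnas, which encodes the stimulatory alpha subunit Gs that couples VIP receptors to adenylyl cyclase, differed between experiments and was not called for VIP or irradiation. Whole organoids were at 613, 574 and 758 CPM without VIP and at 625, 592, 681 and 689 CPM with it. Sorted cells kept for 72 h were at 564, 513, 455 and 598 CPM and, with VIP, at 529, 487, 683 and 591 CPM. The 16 samples of the irradiation experiment lay between 842 and 1008 CPM, above all others. Gnas was higher in untreated sorted cells of that experiment than in untreated whole organoids by 0.62 (SE 0.15, adjusted p = 0.00224) and than in those kept for 72 h by 0.64 (SE 0.14, adjusted p = 0.00209), and it did not differ detectably between the latter and whole organoids (-0.02, SE 0.15, interval -0.33 to 0.30). Differences with VIP were -0.03 in whole organoids (SE 0.09), 0.06 (SE 0.13) in sorted cells at 72 h, -0.02 (SE 0.06) in unirradiated and 0.01 (SE 0.06) in irradiated cells, and those with irradiation were -0.07 (SE 0.06) and -0.04 (SE 0.06). Adjusted p-values of these 6 differences were 0.666 or above. The locus, chr2:174284320-174346744 on the plus strand, is imprinted and also carries the antisense gene Nespas, and gene-level counts do not separate the Gs transcript from the others of the locus.

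Adcy6, a cyclase that Gs stimulates and Gi inhibits, was not called in any comparison. Untreated whole organoids were at 47.1, 48.6 and 27.4 CPM and treated ones at 40.9, 42.6, 30.6 and 35.2 CPM. The low value is that of untreated mouse 3, and the groups overlapped. Sorted cells at 72 h ranged from 20.7 to 50.9 CPM without VIP and from 21.7 to 36.5 CPM with it, and the 16 samples of the irradiation experiment from 17.7 to 37.1 CPM. Differences with VIP were -0.10 (SE 0.11) in whole organoids, -0.31 (SE 0.28) in sorted cells at 72 h, -0.29 (SE 0.23) in unirradiated and 0.10 (SE 0.23) in irradiated cells. The whole-organoid difference was -0.19 with the second library of VIP-treated mouse 3 left out and 0.02 with the first left out. Untreated sorted cells of the irradiation experiment were at -0.58 (SE 0.26, adjusted p = 0.0639) against whole organoids, and without untreated mouse 3 at -0.78 (adjusted p = 0.00413, against 0.00413 to 0.194 over 16 alternatives). Adcy6 overlaps the antisense gene Gm29331 on chromosome 15.

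Prkar1a, the type I regulatory subunit that holds PKA inactive until cAMP binds, had a positive difference in each of the 4 VIP comparisons and passed the threshold in none. Whole organoids were at 199.6, 184 and 237 CPM without VIP and at 221, 227, 281 and 223 CPM with it. Mouse 3 was the highest in both groups, and the groups overlapped. The difference was 0.23 (SE 0.09, 95% interval 0.04 to 0.42, unadjusted p = 0.0231, adjusted p = 0.206), in 3 of 3 mice. It was 0.30 (adjusted p = 0.0249) with the second library of VIP-treated mouse 3 left out, 0.31 (adjusted p = 0.0487) with the first library of every culture, and 0.10 (adjusted p = 0.951) with the first library of that mouse left out. Sorted cells at 72 h were at 221, 130, 176 and 162 CPM without VIP and at 189, 189, 218 and 209 CPM with it (0.20, SE 0.15, adjusted p = 0.935). In the irradiation experiment the group means were, in order, 259.9 ± 16.04 CPM without and 280.3 ± 21.8 CPM with VIP and, after irradiation, 288 ± 6.81 CPM without and 308 ± 17.9 CPM with VIP (SD, n = 4), and neighbouring groups overlapped. VIP gave 0.10 (SE 0.07, adjusted p = 0.638) and, after irradiation, 0.08 (SE 0.07, adjusted p = 0.970). Irradiation gave 0.15 (SE 0.07, unadjusted p = 0.0477, adjusted p = 0.291) without VIP and 0.13 (SE 0.07, adjusted p = 0.311) with it, positive in 4 of 4 mice in both. Without VIP, unirradiated samples (239 to 273 CPM) and irradiated ones (278 to 293 CPM) did not overlap, and with VIP they did.

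Prkar1a has 6 promoter windows in the RefSeq table, of which 3 hold TGACG and 2 overlapping ones hold the full TGACGTCA, which no other member's window does. The window with the full element before its start is shown because CREB binds this sequence, with matches in capitals.
Prkar1a, chr11:109650699-109650998, plus strand: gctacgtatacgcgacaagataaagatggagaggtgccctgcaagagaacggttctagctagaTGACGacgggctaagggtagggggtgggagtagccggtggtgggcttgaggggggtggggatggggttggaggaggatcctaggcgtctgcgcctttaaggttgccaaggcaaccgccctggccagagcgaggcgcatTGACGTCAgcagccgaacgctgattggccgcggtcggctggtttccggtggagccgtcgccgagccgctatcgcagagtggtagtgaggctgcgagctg
The full element starts 49 bases before the transcription start of this window. Untreated sorted cells of the irradiation experiment had more Prkar1a than untreated whole organoids (0.42, SE 0.16, adjusted p = 0.0350) and than those kept for 72 h (0.43, SE 0.16, adjusted p = 0.0495), and the latter did not differ detectably from whole organoids (SE 0.17, interval -0.36 to 0.35). The call against whole organoids was lost in 7 of 16 alternatives and that between the 2 experiments on sorted cells in 10 of 16, with adjusted p up to 0.165 and 0.195.

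Prkaca, a catalytic subunit of PKA, was not called in any comparison. In untreated whole organoids it was at 70.2, 54.3 and 134 CPM, and with VIP at 55.9, 80.6, 103 and 64.3 CPM. Mouse 3 was the highest of both groups, and in its treated culture the first library alone was high, as given above. Sorted cells at 72 h lay between 43.9 and 95.6 CPM and those of the irradiation experiment between 72.9 and 116 CPM. VIP differences were -0.06 (SE 0.16) in whole organoids, 0.23 (SE 0.22) in sorted cells at 72 h, 0.10 (SE 0.10) in unirradiated and 0.05 (SE 0.10) in irradiated cells, with adjusted p-values of 0.760 or above. The whole-organoid difference was 0.08 with the second library of VIP-treated mouse 3 left out and -0.35 with the first left out. Against untreated whole organoids, untreated cells of the irradiation experiment differed by 0.32 (SE 0.26, adjusted p = 0.297), and without untreated mouse 3 by 0.84 (adjusted p = 3.45e-04), with 0.05 to 0.84 over 16 alternatives.

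Creb1, which encodes the factor that PKA phosphorylates, was at 38.6, 48.4 and 21.2 CPM in untreated whole organoids and at 41.8, 52.2, 30.5 and 33.0 CPM in treated ones. It was higher with VIP in 3 of 3 mice, by 0.22 (SE 0.12, 95% interval -0.04 to 0.47, adjusted p = 0.396). In mouse 3 the treated libraries were at 23.7 and 41.3 CPM, against 21.2 CPM untreated. The difference was 0.13 with the second library of VIP-treated mouse 3 left out and 0.34 with the first left out. It was -0.05 with only the first library of every culture. Sorted cells at 72 h were at 25.3, 55.5, 37.8 and 28.6 CPM without VIP and at 37.1, 33.0, 35.7 and 31.7 CPM with it (-0.09, SE 0.26, adjusted p = 0.982). Unirradiated cells of the irradiation experiment were at 18.2, 24.1, 20.6 and 21.0 CPM, and with VIP at 15.8, 20.1, 19.2 and 28.0 CPM (-0.01, SE 0.19). Irradiated cells were at 19.4, 20.5, 17.7 and 22.3 CPM without VIP and at 26.1, 34.4, 23.5 and 22.6 CPM with it. These last 2 groups did not overlap, although the lowest treated and the highest untreated sample, 22.6 and 22.3 CPM, nearly met, and the difference was 0.38 (SE 0.18, unadjusted p = 0.0483, adjusted p = 0.864). Untreated Creb1 was lower in the irradiation experiment than in whole organoids (-0.67, SE 0.26, adjusted p = 0.0356) and than in sorted cells at 72 h (-1.02, SE 0.28, adjusted p = 0.0111), the latter a comparison in which 3 of 8 members and 30.8% of all genes were called. Without mouse 2 of the 72 h cells, at 55.5 CPM, the latter difference was -0.75 (adjusted p = 0.0881), the one of 16 alternatives that lost the call, and 6 of 16 lost that against whole organoids (adjusted p up to 0.203).

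Crem, whose ICER transcripts repress cAMP-responsive genes, was low. It was at 4.68, 5.92 and 7.52 CPM in untreated and 4.41, 7.82, 8.69 and 6.39 CPM in treated whole organoids, and the values overlapped. Sorted cells at 72 h had 0 to 5 UMIs without VIP and 3 to 13 with it, too few for the test. Samples of the irradiation experiment were at 6.67 to 12.2 CPM, from 8 to 20 UMIs each. VIP differences were 0.19 (SE 0.23) in whole organoids, 0.29 (SE 0.26) in unirradiated cells, positive in 4 of 4 mice, and 0.05 (SE 0.26) in irradiated cells, with adjusted p-values of 0.737 or above. The whole-organoid difference was 0.36 with the second library of VIP-treated mouse 3 left out and -0.14 with the first left out. Gene-level counts do not separate ICER from the longer Crem transcripts.

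**Figure D4:**
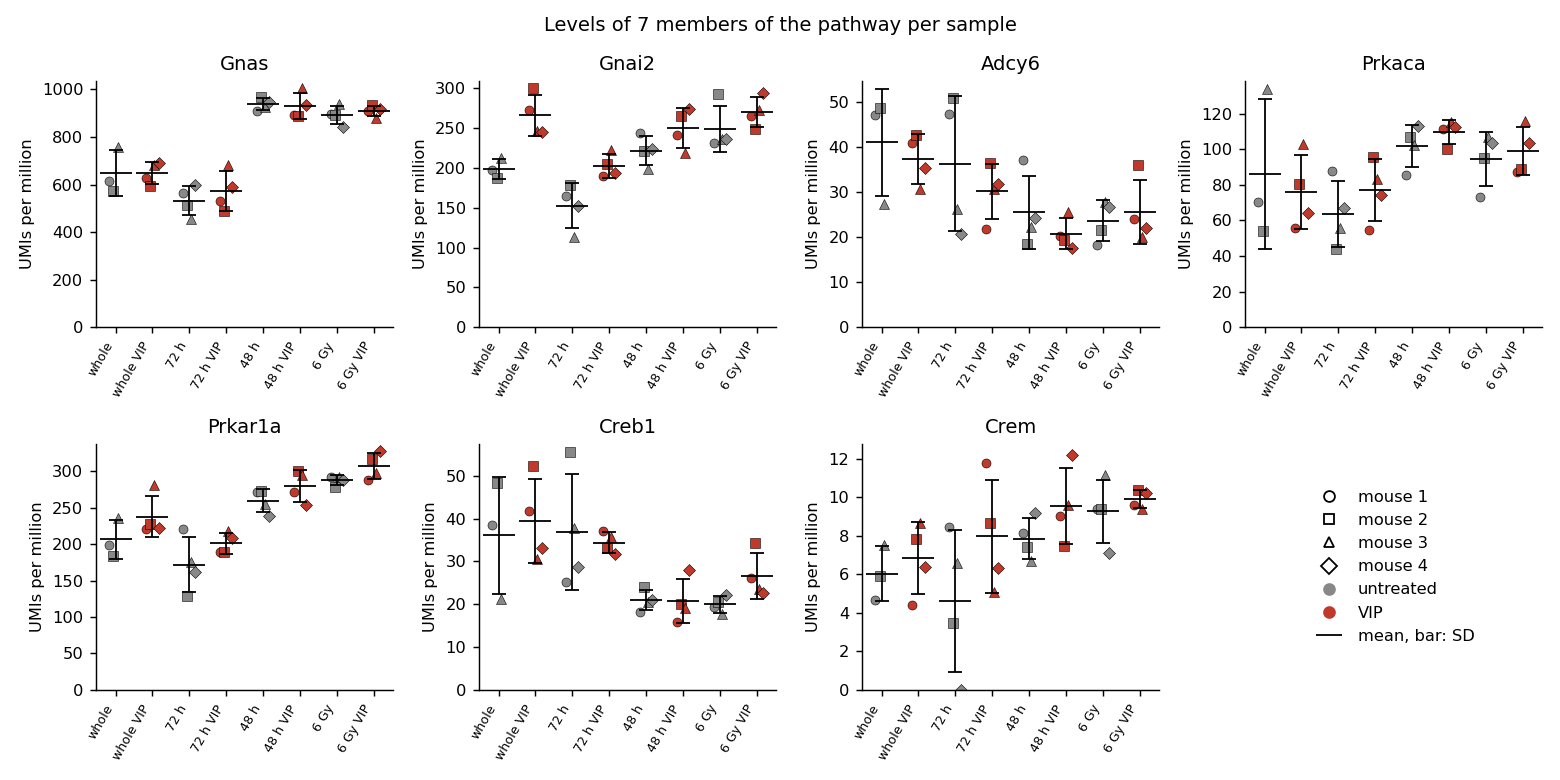
Levels in CPM (y axes) of Gnas, Gnai2, Adcy6, Prkaca, Prkar1a, Creb1 and Crem in each sample of the 8 groups (x axes: whole organoids, sorted cells at 72 h, at 48 h, and at 48 h after 6 Gy, each without and with VIP), with the mean as a line and the SD as a bar. Gnas lies at 842 to 1008 CPM in the irradiation experiment and at 455 to 758 CPM elsewhere.

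Counted over the members, Gnai2 in whole organoids was the single call of the VIP, irradiation and interaction tests. In unirradiated sorted cells at 48 h, 0 of 8 members were called for VIP by edgeR, none with an unadjusted p under 0.05, 0 by DESeq2, and 0.742% of 9976 genes were called. For VIP in irradiated cells 0 of 8 were called, 1 with an unadjusted p under 0.05 (Creb1), 0 by DESeq2, with 0.221% of all genes called. For irradiation without VIP 0 of 8 members were called against 4.46% of all genes, 2 (Gnai2 and Prkar1a) with an unadjusted p under 0.05 and 0 by DESeq2. Irradiation with VIP gave 0 of 8 members, none with an unadjusted p under 0.05 and 0 by DESeq2, against 7.78% of all genes. In the interaction of VIP and irradiation, 0 of 8 members and 0% of all genes were called, with 634 genes but no member at an unadjusted p under 0.05, and DESeq2 called 0 members. The plot of fitted differences gives each value with its interval. The median log2 fold change over the members tested was 0.12, 0.13, 0.05 and 0.07 in the 4 VIP comparisons, in whole organoids, sorted cells at 72 h, unirradiated and irradiated cells, beside medians over all genes between -0.00407 and -0.00152, and no test was made of these medians.

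**Figure D5:**
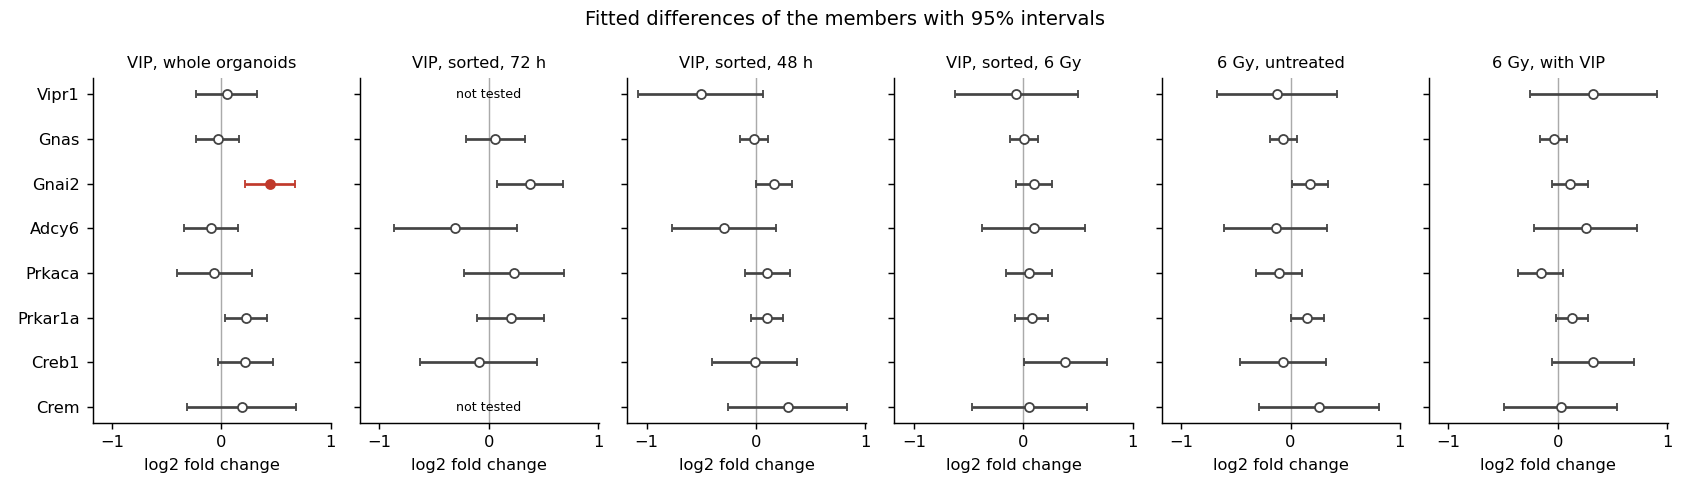
Log2 fold changes (x axes) of the 8 members with enough counts, with 95% intervals, for VIP in 4 settings and for irradiation without and with VIP. The filled red point, Gnai2 in whole organoids at 0.45, is the one past the adjusted threshold, and Vipr1 and Crem were not tested in sorted cells at 72 h.

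The rest of the pathway was followed as 126 further genes in 15 roles, among them ligands, other receptors, cyclases, PKA anchoring proteins, phosphodiesterases and 20 known targets of CREB. Vip itself has no row in any of the 3 tables. In whole organoids 7 of 71 genes tested were called for VIP, all higher, beside 4.82% of all genes (474 higher and 140 lower), and the median over the 71 was 0.08 beside -0.00407 over all genes. Of these, 5 are CREB targets: Areg, an EGF receptor ligand, the immediate-early factors Fos, Junb and Egr1, and the MAP kinase phosphatase Dusp1. They were 5 of 15 targets tested, and the median over the 15 was 0.28. Areg was at 96.0, 88.4 and 51.0 CPM without VIP and at 188, 248, 100.2 and 163 CPM with it. All treated samples were above all untreated ones, and Areg rose by 1.15 (SE 0.12, adjusted p = 5.29e-05). Fos was at 17.7, 24.1 and 17.998 CPM and rose to 39.5, 35.6, 43.3 and 25.2 CPM, by 0.98 (SE 0.15, adjusted p = 0.00146). Dusp1 rose by 1.04 (SE 0.17), Junb by 0.63 (SE 0.10) and Egr1 by 0.59 (SE 0.14). The other 2 were Ezr (0.57, SE 0.09), the PKA-anchoring and microvillus protein ezrin, and Ramp1 (0.75, SE 0.18), an accessory protein of class B receptors. Junb and Ezr overlap the protein-coding genes Prdx2 and Sytl3 on the other strand. The adjusted p-values of these 5 lay between 0.00155 and 0.0265, and all 7 genes were higher in 3 of 3 mice. With the first library of VIP-treated mouse 3 left out 0 of the 7 were called, and with the second left out 15 genes of the list were, these 7 among them. Egr1 and Ramp1 each lost their call in 5 of 12 alternatives, among them DESeq2 (adjusted p = 0.291 and 0.201) and leaving out mouse 1 (0.468 and 0.341), and Areg, Fos, Dusp1 and Ezr each in 2 and Junb in 1. Summed markers of goblet cells moved in the same comparison, with 4993 to 6088 CPM in untreated and 7107 to 8509 CPM in VIP-treated samples and no overlap, with all 6 genes counted in both groups. The sum of the 6 epithelial markers did not overlap either, at 4438 to 4885 CPM in untreated and 5456 to 5832 CPM in VIP-treated samples. Sums for enterocytes, Paneth cells and stem cells overlapped. The part of these shifts in the rises of these genes and of Gnai2 was not tested.

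The promoters of the 2 targets with the smallest p are shown, with TGACG and its reverse complement in capitals.
Areg, chr5:91139349-91139648, plus strand: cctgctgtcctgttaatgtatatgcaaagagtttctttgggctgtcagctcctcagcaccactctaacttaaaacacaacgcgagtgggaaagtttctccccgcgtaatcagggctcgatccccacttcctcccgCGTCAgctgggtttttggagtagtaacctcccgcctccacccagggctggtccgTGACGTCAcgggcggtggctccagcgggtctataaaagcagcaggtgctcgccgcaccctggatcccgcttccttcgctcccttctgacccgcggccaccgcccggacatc
Fos, chr12:85473640-85473939, plus strand: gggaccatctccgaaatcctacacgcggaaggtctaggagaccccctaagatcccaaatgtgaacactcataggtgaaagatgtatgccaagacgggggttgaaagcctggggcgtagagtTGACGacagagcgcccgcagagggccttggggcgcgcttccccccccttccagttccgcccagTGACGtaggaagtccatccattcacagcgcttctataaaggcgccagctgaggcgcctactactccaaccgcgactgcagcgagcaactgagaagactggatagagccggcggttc
Areg holds a full TGACGTCA that starts 61 bases before the transcription start, and Fos holds 2 copies of TGACG, the nearer 66 bases before it. Among the 20 CREB targets, 16 have an entry in the table, all 16 hold TGACG in at least 1 window and 3 hold TGACGTCA, beside 23.0% and 2.03% of the 27025 genes of the table. The list was made of known CREB targets, so this share is no independent result. Of the 106 other pathway genes, 80 have an entry, 27 of these hold TGACG and none the full element.

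In sorted cells, no gene of the rest of the pathway was called for VIP, where few genes of any kind were. At 72 h, 0 of 30 genes tested were called by edgeR and 0 by DESeq2, with none at an unadjusted p under 0.05. The smallest p belonged to Creb3 (-0.54, SE 0.28, adjusted p = 0.884) and Ier2 (-0.22, SE 0.14, adjusted p = 0.918), both lower in 4 of 4 mice. Areg, at 4.93 to 64.8 CPM without VIP and 2.72 to 57.4 CPM with it, was too low for the test there, and its values overlapped. Its interaction of VIP and compartment was -1.59 (SE 0.34, adjusted p = 0.0677), which was past the threshold with DESeq2 and under 4 others of 16 alternatives. In the interaction, 0 of 55 genes of the list were called by edgeR (10 with an unadjusted p under 0.05). Over all 10194 genes 0.147% were called there, and 636 had an unadjusted p under 0.05. At 48 h, 0.742% of all 9976 genes were called without irradiation (1237 unadjusted) and 0.221% with it (574 unadjusted). Of the list, 0 of 56 genes were called without irradiation (10 unadjusted, 0 by DESeq2) and 0 of 56 with it (3 unadjusted, 0 by DESeq2). The beta-arrestin gene Arrb2 (0.62, SE 0.22, adjusted p = 0.205) and the anchoring protein gene Akap11 (-0.44, SE 0.16, adjusted p = 0.247) had the smallest p without irradiation, and the receptor kinase gene Grk6 (-0.43, SE 0.15, adjusted p = 0.59) and Atf3 (-0.53, SE 0.22, adjusted p = 0.740) with it.

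Irradiation was followed by rises of several genes of the list in sorted cells. Without VIP, 5 of 56 were called, all higher, beside 4.46% of all genes: Areg rose by 1.29 (SE 0.16, adjusted p = 1.62e-05), the gene of the related peptide secretin, Sct, by 0.72 (SE 0.16, adjusted p = 0.00764), Btg2 by 0.45 (SE 0.11), Ezr by 0.42 (SE 0.10) and Junb by 0.35 (SE 0.09), each in 4 of 4 mice. Areg was at 44.5 to 66.0 CPM in unirradiated and 113 to 169 CPM in irradiated untreated cells, and the groups did not overlap. Over 10 alternatives Areg kept its call in each, and the call was lost in 4 for Sct, 3 for Junb, 2 for Ezr and 1 for Btg2. With VIP present 6 of 56 were higher and 2 lower, beside 7.78% of all genes. Those that rose included Areg (1.32, SE 0.17, adjusted p = 7.28e-06), Sct (1.03, SE 0.17), Btg2 (0.72, SE 0.11), the orphan receptor gene Nr4a1 (0.88, SE 0.21) and Junb (0.36, SE 0.09). Grk6 (-0.54, SE 0.15) and Arrb2 (-0.75, SE 0.22), which act in the desensitization of G protein-coupled receptors, were lower, and both calls were lost with DESeq2 and without mouse 2 or mouse 3. Over 10 alternatives the call was lost in 4 for Arrb2, 3 for Grk6, 2 for Junb and 1 for Nr4a1, and in 0 for Areg, Sct and Btg2. Summed markers of enteroendocrine cells, the cells that express Sct, were at 2387 to 3093 CPM in unirradiated and 3395 to 6527 CPM in irradiated untreated cells, with all 6 genes counted, and their part in the rise of Sct was not tested. Between the same groups, Paneth cell sums rose from 9889 to 14679 CPM to 14773 to 27162 CPM. Stem cell sums fell from 3341 to 4341 CPM to 2411 to 2756 CPM. These ranges did not overlap either, and those of goblet cells, enterocytes and tuft cells did. The part of these shifts in the changes of the other genes was not tested. The difference between the 2 irradiation comparisons was past the threshold for 0% of all 9976 genes (634 unadjusted). It was so for 0 of 56 genes of the list (4 unadjusted, 0 by DESeq2), the smallest p being that of Arrb2 (-1.06, SE 0.32, adjusted p = 0.678) and Akap11 (0.52, SE 0.23, adjusted p = 0.741). The comparisons in sorted cells at 48 h share samples, so their values are not independent of each other.

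Between compartments, genes of the list were called in both directions, in shares near those of all genes. These are the comparisons of untreated groups used for Vipr1, which also differ in mice, experiment and, in part, strain, sorting and time kept. The parts of these factors cannot be told apart here either. Untreated sorted cells at 72 h had 5 genes higher and 15 lower than whole organoids of 58 tested, where 38% of all genes were called, and those of the irradiation experiment 12 higher and 21 lower, where 54.2% were. Gna11, an alpha subunit of the Gq family, was lower in both (-1.53, SE 0.17, and -1.97, SE 0.16), at 551 ± 56.2 CPM in whole organoids (SD, n = 3) against 158 ± 43.1 and 131 ± 11.2 CPM (n = 4 each). The gamma subunit gene Gng5 was higher at 72 h (1.72, SE 0.17). Of the 15 CREB targets tested, 8 were higher and 3 lower in the irradiation experiment, with Fos at 280.3 ± 35.6 CPM against 19.9 ± 3.61 CPM in whole organoids (3.91, SE 0.37) and Nr4a1 at 22.1 ± 3.39 against 2.03 ± 0.562 CPM (3.52, SE 0.34). Against sorted cells at 72 h, 9 of 58 genes were higher there and 8 lower, where 30.8% of all genes were called, among the higher ones Junb (1.70, SE 0.16).

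The genes whose level varied most like Vipr1 were sought over the 16 samples of the irradiation experiment, as the correlation of log2 CPM, each as the deviation from the mean of its mouse, over 9975 genes. Gm12691 (Pearson r = 0.893), Zfp747 (0.869), Tex2 (0.837), Coro2a (0.831) and Atxn7 (0.830) came first. These are a description of 16 libraries that share mice and depth, chosen as the highest of many, and Vipr1 averaged 13.9 UMIs per sample and 4 of the 5 between 8.19 and 9.50. No other member of the pathway was among the 5.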

How the data were processed

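RNA from 31 samples of jejunal organoids (37 libraries, 12 mice) was examined. The 3 tables hold whole UMI counts, not normalized, which the authors made with a Drop-seq pipeline that collapsed reads by barcode and UMI. The genome build per the labels was GRCm38. A gene with no UMI in a table has no row and was taken as 0 in fits across tables. Technical libraries of a culture were summed. Totals of 575242 to 6330404 UMIs per sample set the precision, and exact Poisson intervals (95%) and the limit of 3 counts for a count of 0 cover counting error only.

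Members and lists were chosen with earlier results of these data known. Named were the 10 members in every comparison, the called genes of a pathway list (at most 8 by smallest p, or the 2 smallest where none was called) and the 5 genes most like Vipr1. One gene called for irradiation with VIP is not reported here. The Gng5, Junb and CREB target examples between compartments follow the same rule.

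Counts were tested with edgeR 4.0.16 in R 4.3.3 (quasi-likelihood test, TMM scaling, filterByExpr, Benjamini-Hochberg adjustment over all genes tested, prior count 2 for log2 levels). VIP and irradiation were tested with the mouse as a block, since samples of a number within an experiment come from the same mouse. Deviations from group means correlated at 0.278 to 0.649 between samples of the same mouse in whole organoids, 0.0263 to 0.220 in sorted cells at 72 h and -0.0886 to 0.178 in the irradiation experiment. Between samples of different mice they correlated, in the same order, at -0.555 to 0.332, -0.148 to 0.162 and -0.233 to 0.239. The ranges for same and different mice thus overlapped in each experiment. Comparisons of untreated groups across tables had no block, and the interaction of VIP and compartment had the mouse as a block. The model was tested on simulated data first. Alternatives were DESeq2 1.42.0, other size factors, no low-count filter, no block, leaving out each mouse or sample in turn, and single technical libraries. Leaving out the first library of VIP-treated mouse 3 was chosen after seeing the data. Promoters are those of RefSeq for GRCm38.p6 and gene positions those of a GENCODE annotation of GRCm38. Aligner settings and strand use are not given in the sources used here.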

Additional observations from a re-analysis of the deposited data

Results flagged for a closer look

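In 8 of the 61 groups of 4 samples checked, 1 sample lay farther from the others than Dixon's 95% criterion allows. Chance gives about 1 in 20 groups, but a single UMI beside zeros always passes this criterion. That was so in 5 of the 8, so their number cannot be read as an excess over chance. For Vipr1, irradiated cells with VIP had 10.1 CPM in mouse 1 and 8.62 to 8.83 CPM in the other mice. Gnai2 was at 293 CPM in irradiated untreated cells of mouse 2 and at 231 to 237 CPM in the others. Prkar1a was at 281 CPM in VIP-treated whole organoids of mouse 3, the culture whose libraries differed, and at 221 to 227 CPM in the others. The remaining 5 were single UMIs in groups otherwise at 0. These were Vipr2 in sorted cells with VIP at 72 h (0.906 CPM), in unirradiated cells with VIP (0.639 CPM) and in irradiated cells with VIP (0.588 CPM), and Adcyap1r1 in sorted cells with VIP at 72 h (1.70 CPM) and in irradiated cells with VIP (0.539 CPM).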

How the results depend on the processing

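For VIP in whole organoids, members called were 1 as reported, 0 with DESeq2, 0 with no replicate block, 0 to 1 with a mouse left out, 2 (Gnai2 and Prkar1a) with the first technical library of each culture, 2 with the second library of VIP-treated mouse 3 left out, and 0 with its first left out. Genes called over the whole table were 614, and 300 with DESeq2, 99 with no replicate block, 979 without the low-count filter and 1668 without mouse 3. The number of called members in the other comparisons tested within mice was 0 with and without the replicate block. Between untreated sorted cells at 72 h and whole organoids, 0 members were called and 2 (Vipr1 and Gnai2) with library size only. Between the irradiation experiment and whole organoids 4 were called, and 2 to 7 with a sample left out. Between the 2 experiments on sorted cells 3 were called, 5 without the filter and 2 to 6 with a sample left out. Of 1743 values of single genes under alternatives, 68 lost a call and 25 gained one. None of the 746 values called in either fit changed sign (0), and 70 of the 997 called in neither did, among them values of Vipr1, Creb1 and Adcy6. The cause of these shifts was not tested. Pathway genes called for VIP in whole organoids were 7, and 1 with no replicate block, 12 without the filter and 16 without mouse 3. Depth limits Vipr1 and Crem in sorted cells, with 0 to 20 UMIs per sample, and leaves Vipr2 and Adcyap1r1 untestable.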
